A study of Drosophila melanogaster
Drosophila virilis with 26 samples.

Results

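The maternal Toll pathway was followed through 6 RNA-seq library protocols in RNA of pooled Drosophila embryos collected at 0 to 4 h. Its 10 members are the D. melanogaster genes named exactly ndl, gd, snk, ea, spz, Tl, tub, pll, cact and dl, where dl is dorsal and not the Notch ligand of similar spelling. All 10 were found among the 13802 D. melanogaster genes of the full-depth count table, which lists 28133 genes of 2 species for 26 libraries. The rule used their names alone.

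The pathway sets the dorsal-ventral axis of the fly embryo with products that the mother places in the egg. Follicle cells around the egg make an eggshell cue on the future ventral side, and serine proteases in the fluid under the eggshell then act in a chain that ends in the cleavage of Spätzle. Cleaved Spätzle binds the receptor Toll, and inside the embryo Tube and Pelle pass the signal on, Cactus is degraded, and the transcription factor Dorsal enters the ventral nuclei. In an embryo of this age most of these mRNAs are known to be maternal deposits.

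The study mixed TRIzol-extracted total RNA of pooled D. melanogaster and D. virilis embryos, kept under standard conditions, in fixed proportions and made 1 library from each mixture with each protocol. The low-input protocols started with 1 ng. They were Clontech, in which cDNA was made with TruSeq reagents and finished with a low-input kit, TotalScript, primed with oligo(dT), SMART-seq2, primed with oligo(dT) and amplified before tagmentation, and SMART-seq2 with the tagmentation reaction reduced 2.5-fold (2.5x) or 5-fold (5x). The standard of comparison was TruSeq at 100 ng. Clontech, TotalScript, SMART-seq2 and TruSeq had 4 libraries each, one for each D. virilis share of 0, 5, 10 and 20%, and the 2.5x and 5x dilutions had 5 each, one more for a share of 1%. The labels name no strain, and the embryos of a pool are not separate samples. No mixture was repeated within a protocol, so p-values measure the spread between libraries that share a protocol and the same D. melanogaster RNA, which is technical. Protocol, input mass and pre-amplification cannot be told apart. The 2.5x and 5x libraries were made from 1 set of amplified cDNA. They were sequenced in a later experiment, and in another lane, than all other libraries, TruSeq included. Volume and experiment therefore cannot be told apart between the dilutions and full-volume SMART-seq2. Between the dilutions and TruSeq, protocol cannot be told apart from experiment and lane.

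Levels are given as reads in every 1000000 D. melanogaster reads (RPM), since D. virilis RNA took up to 20% of a mixture. D. melanogaster reads per library ranged between 2762902 and 7842785 in Clontech, 1561692 and 3395646 in TotalScript, 1804452 and 1995639 in SMART-seq2, 12467391 and 16967107 in 2.5x, 11215999 and 19011285 in 5x, and 18971801 and 55055710 in TruSeq. The share of alignments outside the gene rows was 42.3 to 52.7% in TotalScript, above all other libraries, where it was between 17.3 and 28.1%. The pool was rich in maternal germline mRNAs and low in early zygotic mRNAs, which does not by itself set its age. In TruSeq, 5 maternal germline mRNAs (bcd, nos, osk, gcl, pgc) summed to 2202 to 2401 RPM, 6 early zygotic genes (eve, ftz, twi, sna, zen, Kr) to 13.9 to 15.0 RPM, 12 eggshell genes of the follicle cells to 0.0363 to 0.338 RPM, and 5 genes of differentiated cells (Mhc, Mlc2, elav, repo, Sgs3) to 0.369 to 0.788 RPM. The germline mRNAs summed to 2319 to 2486 RPM in Clontech, 6679 to 7222 RPM in TotalScript, 3698 to 3996 RPM in SMART-seq2, 3582 to 3929 RPM in 2.5x and 3441 to 3801 RPM in 5x, the last 4 all above TruSeq, and the part of this in the members' shares was not tested.

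In TruSeq, 9 of the 10 members had at least 322 reads in every library, and ndl, with 10 to 31 reads, was near the limit of detection. Mean levels in TruSeq were 759 ± 57.8 RPM for Tl, 724 ± 6.37 RPM for cact, 205 ± 1.96 RPM for dl, 185 ± 3.85 RPM for spz and 156 ± 3.19 RPM for tub (SD, n = 4). The pelle mRNA averaged 98.0 ± 2.45 RPM, ea 81.7 ± 3.32 RPM, gd 19.5 ± 0.675 RPM and snk 19.3 ± 1.92 RPM. These are shares of reads and not per transcript length, so they put no order on the genes. All members together took 2249 ± 48.9 RPM of the TruSeq libraries.

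**Figure D1:**
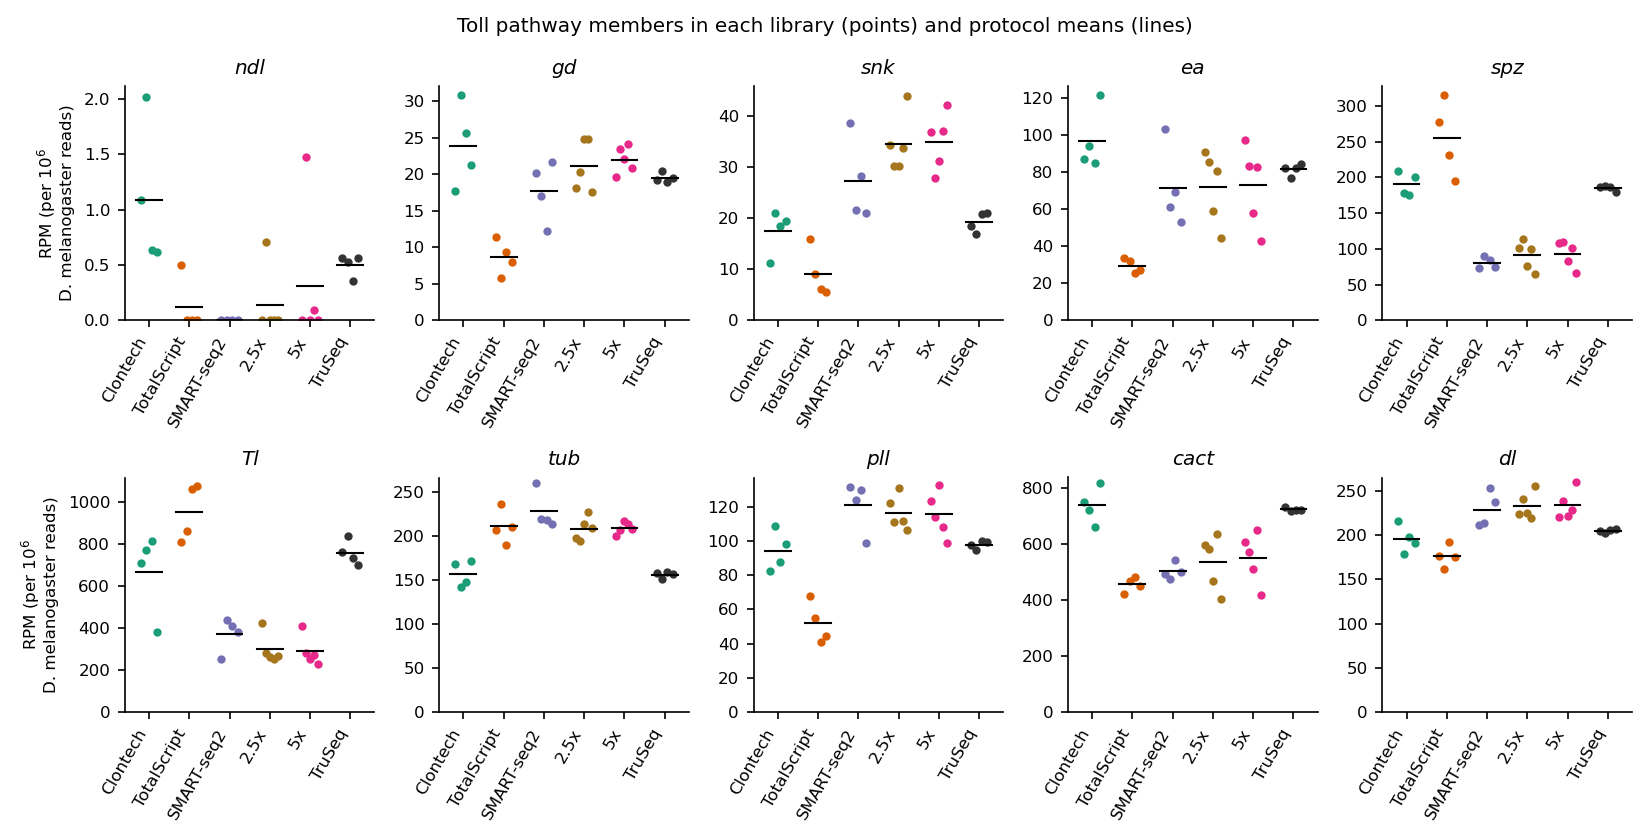
Level of each member in RPM (vertical axis, linear from 0, a scale of its own in each panel) in every library (points) of the 5 low-input protocols and TruSeq, with the protocol mean as a line. Tl sits at 226 to 436 RPM in the SMART-seq2 protocols against 702 to 837 RPM in TruSeq, and ea at 25.3 to 33.7 RPM in TotalScript against 76.9 to 84.6 RPM in TruSeq.

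Recovery was tested against TruSeq with edgeR's quasi-likelihood test on the D. melanogaster counts, with Benjamini-Hochberg adjustment over all genes of the fit, and a gene was called at an adjusted p under 0.05. The 5 comparisons share the TruSeq libraries, and those of 2.5x and 5x also share amplified cDNA, so the comparisons are not independent of each other. Where libraries of several protocols are counted together below, each cDNA of the dilutions enters at both volumes. In Clontech, 0 of 10 members were called in either direction, where the background was 0.165% of 6655 genes called higher and 0% called lower. At an unadjusted p under 0.05 the edgeR test gave 1 member (ea) and 1148 genes in all, and DESeq2 and limma called 0 members too. In TotalScript, 3 members were called higher (spz, Tl, tub) and 6 lower (gd, snk, ea, pll, cact, dl), beside 38.2% of genes called higher and 36.5% called lower. In SMART-seq2, 3 members were called higher (snk, tub, pll) and 3 lower (spz, Tl, cact), beside 35.6% higher and 18.8% lower. The 2.5x dilution gave 4 higher (snk, tub, pll, dl) and 3 lower (spz, Tl, cact), beside 41.7% higher and 21.4% lower, and the 5x dilution 4 higher (snk, tub, pll, dl) and 3 lower (spz, Tl, cact), beside 42.7% higher and 22.2% lower. The member counts were not tested against these backgrounds, and the genes and the size of their changes are described.

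**Figure D2:**
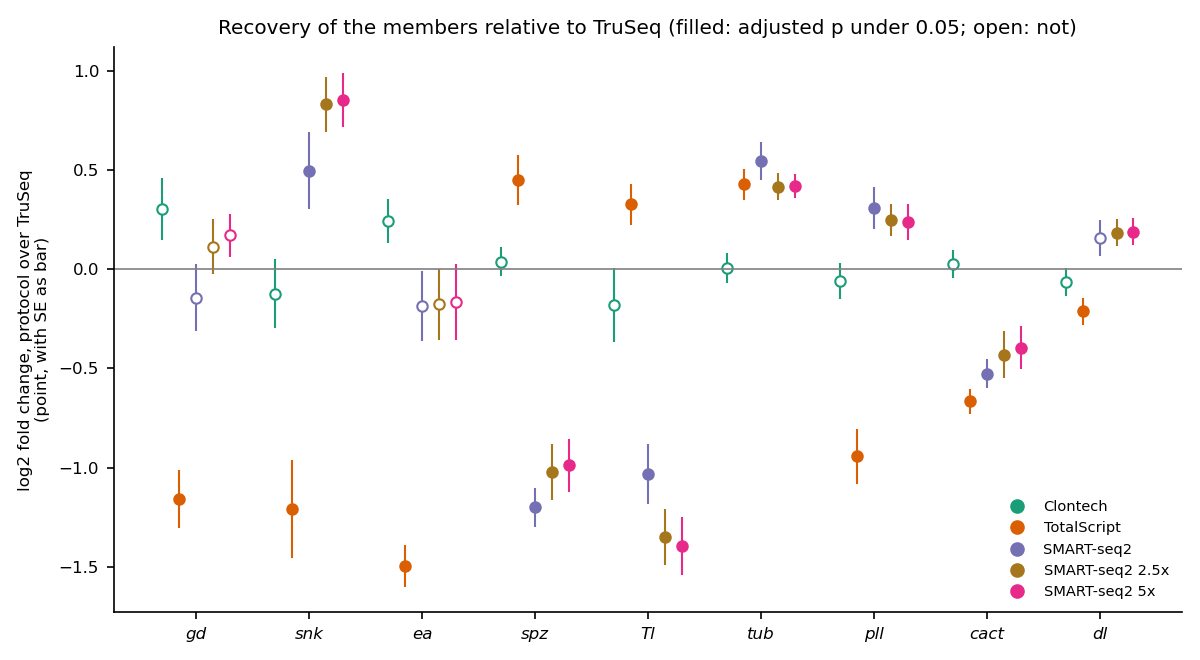
Log2 fold change of 9 members in each low-input protocol over TruSeq (points), from edgeR, with an SE derived from the F statistic of the test (bars). Genes are ordered from the proteases to the transcription factor. Filled points passed an adjusted p of 0.05. Clontech lies between -0.18 and 0.30 with no filled point, ea reaches -1.5 in TotalScript, and Tl reaches -1.40 in the 5x dilution.

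The median log2 fold change of the members was 0.02 in Clontech, -0.80 in TotalScript, -0.16 in SMART-seq2, -0.03 in 2.5x and 0.00 in 5x. Over all genes tested it was 0.03, 0.02, 0.19, 0.22 and 0.22 in the same protocols. Because the median gene of the SMART-seq2 protocols stood 0.19 to 0.22 above TruSeq on this scale, rescaling by TMM took it to 0.01 to 0.03 and lowered each member by a similar amount. The share of calls that were higher was then 50.6% in place of 65.5% in SMART-seq2, 51.8% in place of 66.1% in 2.5x, and 52.2% in place of 65.8% in 5x. Small rises in these protocols, those of pll and dl, depend on that choice.

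With ndl left out for its few reads, ea, gd and snk had the lowest TotalScript means, at 36.1, 44.1 and 47.2% of TruSeq. The kinase gene pll followed at 53.1%. The gap between pll and these proteases was not tested, and gd and snk rest on few TotalScript reads. The product of ndl (nudel), a large protease made in the follicle cells, is needed to start the chain. Its mRNA gave 3, 7, 5 and 2 reads in the Clontech libraries (0, 5, 10 and 20% in order), 1 read in the 0% library of TotalScript and 0 in the other 3, and 0 reads in all 4 SMART-seq2 libraries. In the dilutions it gave 28 reads in the 1% library of 5x with 1 read in its 10% library, and 12 reads in the 1% library of 2.5x. The other 3 libraries of 5x and the other 4 of 2.5x had 0 reads, and the TruSeq libraries had 31, 10, 11 and 15 reads, or 0.351 to 0.563 RPM. The 1% library thus carried nearly all ndl reads of both dilutions, which were made from the same cDNA. As shares, the Clontech libraries had 0.616 to 2.02 RPM of ndl, all above the TruSeq libraries, but on 2 to 7 reads each.

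A count of 0 in a library allows up to 3 reads, which is 1.5 to 1.66 RPM in the SMART-seq2 libraries and 0.883 to 1.92 RPM in the TotalScript libraries at 0. Both limits lie above the TruSeq level, so a 0 in any single one of those libraries does not show a loss of ndl. In the 2.5x and 5x libraries at 0 the limit was 0.180 to 0.241 RPM and 0.202 to 0.217 RPM, below every TruSeq library. No fold is given for ndl, since its fitted value rests on the libraries at 0. The test did not call it in any comparison with TruSeq (adjusted p from edgeR of 0.362 in Clontech, 0.0660 in TotalScript, 0.0654 in SMART-seq2, 0.197 in 2.5x and 0.686 in 5x), while DESeq2 called it lower in SMART-seq2 (adjusted p = 0.0445) and limma in 2.5x (adjusted p = 0.0157). Without the 1% library it was called lower in 2.5x (adjusted p from edgeR = 0.00310) and in 5x (adjusted p from edgeR = 0.00300), and without the 0% library it was called lower in TotalScript (adjusted p from edgeR = 0.0283). The TruSeq libraries alone met the read filter for ndl, so the group with the most reads admitted it to these tests. That favours calls in the lower direction, and those calls are not read as a loss of ndl. The gene span of ndl overlaps that of MCU, which the count table names CG18769 and which stood at 129 RPM in TruSeq, and reads of overlapping genes cannot be told apart by strand here.

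The protease encoded by gd (gastrulation defective) acts early in the chain. Its mRNA had 11.4, 5.76, 9.34 and 7.95 RPM in the TotalScript libraries, against 19.2, 20.5, 19.0 and 19.5 RPM in the TruSeq libraries. Every TotalScript library lay below every TruSeq library, and gd fell by 1.16 on the log2 scale (SE 0.15, adjusted p from edgeR = 3.96e-05). These TotalScript values rest on 9 to 31 reads. In no other protocol did gd pass the test. The differences were 0.30 (SE 0.16) in Clontech, -0.14 (SE 0.17) in SMART-seq2, 0.11 (SE 0.14) in 2.5x and 0.17 (SE 0.11) in 5x on the log2 scale.

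The snk gene (snake) encodes the protease that acts on Easter. In TotalScript its mRNA had 15.8, 8.96, 6.02 and 5.6 RPM, against 18.5, 17.0, 20.8 and 20.9 RPM in TruSeq. It fell by 1.21 there (log2, SE 0.25, adjusted p from edgeR = 0.00122), with no overlap between the protocols. TotalScript counts were 14 to 32 reads, and without the 0% library the difference was -1.59.

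In the SMART-seq2 protocols the same mRNA lay on the other side of TruSeq. It had 38.6, 21.5, 28.2 and 21.1 RPM in full-volume SMART-seq2, 34.3, 30.2, 30.1, 33.7 and 43.9 RPM in the 2.5x libraries, and 36.8, 27.8, 31.2, 37.0 and 42.1 RPM in the 5x libraries. All 14 were above the TruSeq libraries, with each cDNA of the dilutions counted at both volumes. In the full volume the difference was 0.50 (log2, SE 0.19, adjusted p from edgeR = 0.0496). That call was lost in all 7 alternatives (adjusted p 0.0600 to 0.265) and when the 0% or 10% SMART-seq2 library or any TruSeq library was left out, and without the 0% library the difference was 0.29. The rise was 0.83 in 2.5x (log2, SE 0.14, adjusted p from edgeR = 0.00027) and 0.85 in 5x (log2, SE 0.14, adjusted p from edgeR = 0.000177), and both held in every alternative tried and with each library left out.

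The ea gene (easter) encodes the protease that cleaves Spätzle, the last step before the receptor. In TotalScript it had 33.7, 32.0, 25.3 and 27.1 RPM, against 82.6, 76.9, 82.6 and 84.6 RPM in TruSeq. It fell by 1.5 on the log2 scale (SE 0.11, adjusted p from edgeR = 6.71e-07), the largest fall of a member in TotalScript apart from ndl, which has too few reads for a fold. Its TotalScript mean was 36.1% of the TruSeq mean. In Clontech it had 87.2, 94.5, 85.3 and 122 RPM. All 4 were above the TruSeq libraries, yet the difference of 0.25 (SE 0.11) did not pass the test (adjusted p from edgeR = 0.282).

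In the SMART-seq2 protocols ea varied more than any other member but ndl. Its mRNA had 103, 61.1, 69.6 and 53.2 RPM in full-volume SMART-seq2. It had 91.1, 85.6, 59.0, 80.9 and 44.8 RPM in the 2.5x libraries of 0, 1, 5, 10 and 20%, and 97.6, 83.4, 57.8, 83.0 and 42.9 RPM in the 5x libraries of the same mixtures. The libraries lay on both sides of TruSeq. None of the differences passed the test, at -0.19 (SE 0.18) in SMART-seq2, -0.18 (SE 0.18) in 2.5x and -0.16 (SE 0.19) in 5x on the log2 scale. Without the 0% library the SMART-seq2 difference was -0.41 and was called lower (adjusted p from edgeR = 0.0020).

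The ligand and its receptor behaved differently from gd, snk and ea: both were low in the SMART-seq2 protocols and high in TotalScript. The spz gene encodes Spätzle, the ligand of Toll. It had 73.4, 90.7, 84.0 and 74.3 RPM in SMART-seq2, 101, 113, 76.0, 100.4 and 65.4 RPM in 2.5x, and 108, 110.0, 82.9, 101 and 65.8 RPM in 5x. The TruSeq libraries had 187, 188, 187 and 180 RPM, far above all 14 of these. It fell in SMART-seq2 (log2 -1.20, SE 0.10, adjusted p from edgeR = 1.12e-05), 2.5x (log2 -1.02, SE 0.14, adjusted p from edgeR = 6.73e-05) and 5x (log2 -0.99, SE 0.13, adjusted p from edgeR = 4.28e-05). The means came to 43.4, 49.2 and 50.4% of TruSeq.

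In TotalScript the same mRNA rose. It had 278, 316, 232 and 196 RPM, all above the TruSeq libraries, and the difference was 0.45 (log2, SE 0.13, adjusted p from edgeR = 0.00825). In Clontech it had 208, 179, 176 and 201 RPM, on both sides of TruSeq, with a difference of 0.04 (SE 0.07). The spz span overlaps CG43935, which had 0.0226 RPM in TruSeq.

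Tl encodes Toll, the transmembrane receptor. It had 254, 436, 409.6 and 383 RPM in SMART-seq2, 424, 282, 263, 252 and 267 RPM in 2.5x, and 411, 279 and 253 RPM in the 0, 1 and 5% libraries of 5x with 271 and 226 RPM in those of 10 and 20%. TruSeq gave 764, 837, 733 and 702 RPM. Even the highest of the 14 SMART-seq2 libraries, at 436 RPM, was below the lowest TruSeq library. Tl fell in SMART-seq2 (log2 -1.03, SE 0.15, adjusted p from edgeR = 0.000334), 2.5x (log2 -1.35, SE 0.14, adjusted p from edgeR = 8.32e-06) and 5x (log2 -1.40, SE 0.15, adjusted p from edgeR = 5.93e-06). The means were 48.8, 39.2 and 37.9% of TruSeq. With ndl left out for its few reads, this was the lowest share of any member in each dilution.

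TotalScript gave Tl 811, 863, 1061 and 1076 RPM. The 0% library lay within the TruSeq range and the other 3 above it, and the rise was 0.33 (log2, SE 0.10, adjusted p from edgeR = 0.0141). With all 26 libraries in 1 fit the adjusted p was 0.161. Clontech gave 711, 771, 813 and 380 RPM. One library, of the 20% mixture, stood far below the other 3, and the Clontech difference of -0.18 (SE 0.19) was 0.01 without it.

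D. virilis genes carry their own reads in these mixtures, and 2 are named after members, Dvir\Tl and Dvir\tub. As a share of D. virilis reads in the 5, 10 and 20% libraries, Dvir\Tl averaged 383 ± 50.5 RPM in SMART-seq2, 386 ± 55.3 RPM in 2.5x and 371 ± 94.8 RPM in 5x, against 744 ± 63.5 RPM in TruSeq (SD, n = 3). These are 51.4, 51.9 and 49.9% of TruSeq, and no library of the 3 protocols reached the TruSeq range of 703 to 817 RPM. Like Tl, the D. virilis gene was thus lower in the SMART-seq2 protocols. In TotalScript it averaged 301 ± 161 RPM, or 40.5% of TruSeq, while the D. melanogaster gene was at 126% of TruSeq. Clontech, at 645 ± 254 RPM, overlapped TruSeq. These values were not tested, and the counts of Dvir\Tl were 13 to 81 reads in the SMART-seq2 and TotalScript libraries. In the 0% libraries Dvir\Tl had 4 reads in TruSeq, 1 in each dilution and 0 in the other protocols.

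Downstream of the receptor, tub (tube) encodes an adaptor that links Toll to the kinase Pelle. It was the only member called higher in TotalScript and in all 3 SMART-seq2 protocols. It had 207, 237, 190 and 210 RPM in TotalScript, 261, 219, 218 and 214 RPM in SMART-seq2, 197, 195, 214, 228 and 209 RPM in 2.5x, and 200, 207, 217, 213 and 208 RPM in 5x. TruSeq gave 158, 152, 159 and 157 RPM, so that none of those 18 libraries overlapped it. The rise was 0.43 in TotalScript (log2, SE 0.08, adjusted p from edgeR = 0.00046), 0.55 in SMART-seq2 (log2, SE 0.10, adjusted p from edgeR = 0.000897), 0.42 in 2.5x (log2, SE 0.07, adjusted p from edgeR = 0.000234) and 0.42 in 5x (log2, SE 0.06, adjusted p from edgeR = 6.68e-05). Clontech, with 168, 142, 148 and 171 RPM, differed by 0.01 (SE 0.08). In the 5, 10 and 20% libraries Dvir\tub averaged 130 to 145% of TruSeq in Clontech and the SMART-seq2 protocols and 110% in TotalScript, with ranges that overlapped TruSeq. Its counts were 5 to 27 reads in the Clontech, TotalScript and full-volume SMART-seq2 libraries. In the 1% libraries, a mixture without a TruSeq library, it had 296 RPM in 2.5x (44 reads) and 282 RPM in 5x (47 reads). Both lay above the TruSeq range of 77.1 to 94.1 RPM. These values were not tested.

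The kinase gene pll (pelle) had 67.8, 55.1, 41.0 and 44.2 RPM in TotalScript, against 97.6, 94.7, 100.1 and 99.5 RPM in TruSeq. It fell by 0.94 there (log2 -0.94, SE 0.14, adjusted p from edgeR = 0.000109), to 53.1% of the TruSeq mean. In the SMART-seq2 protocols it was slightly above TruSeq, by 0.31 in SMART-seq2 (SE 0.11, adjusted p from edgeR = 0.0311), 0.25 in 2.5x (SE 0.08, adjusted p from edgeR = 0.0159) and 0.24 in 5x (SE 0.09, adjusted p from edgeR = 0.0324). One SMART-seq2 library of 4, at 99.2 RPM, lay within the TruSeq range, as did 1 of 5 in 5x. TMM scaling reduced the 3 differences to 0.13, 0.06 and 0.04, and none was then called. The SMART-seq2 call was lost in all 7 alternatives (adjusted p 0.0598 to 0.303) and without its 5% or 10% library or any TruSeq library, that of 2.5x without the 5% TruSeq library, and that of 5x without its 0% or 5% library or any TruSeq library. The span of pll overlaps TfIIA-L, which had 211 RPM in TruSeq.

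Cactus, encoded by cact, holds Dorsal in the cytoplasm until it is degraded. Its mRNA was lower than in TruSeq in every protocol but Clontech. It had 422, 469, 482 and 451 RPM in TotalScript, 493, 475, 543 and 499 RPM in SMART-seq2, 595, 581, 467, 636 and 403 RPM in 2.5x, and 605, 570, 512, 648 and 418 RPM in 5x. The TruSeq libraries held to 733, 718, 722 and 721 RPM, above all 18 of these. It fell in TotalScript (log2 -0.67, SE 0.06, adjusted p from edgeR = 4.19e-06), SMART-seq2 (log2 -0.53, SE 0.07, adjusted p from edgeR = 0.000222), 2.5x (log2 -0.43, SE 0.12, adjusted p from edgeR = 0.00752) and 5x (log2 -0.39, SE 0.11, adjusted p from edgeR = 0.00655). Clontech, with 751, 723, 662 and 817 RPM, differed by 0.03 (SE 0.07). The span of cact overlaps fzy, at 356 RPM in TruSeq.

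Dorsal is the Rel-family transcription factor at the end of the chain. Its mRNA (dl) had 177, 162, 192 and 176 RPM in TotalScript, against 205, 203, 206 and 207 RPM in TruSeq, a fall of 0.21 (log2 -0.21, SE 0.07, adjusted p from edgeR = 0.0174). It had 221, 238, 222, 229 and 261 RPM in 5x and 224, 242, 225, 219 and 256 RPM in 2.5x, each above every TruSeq library. The differences were 0.19 in both (SE 0.07 in both, adjusted p from edgeR = 0.0265 in 5x and 0.0306 in 2.5x). TMM scaling turned them to -0.0049 in 5x and -0.0063 in 2.5x, and the 2 calls were lost without any 1 of the 4 TruSeq libraries, in 2.5x also without its 1% library. In SMART-seq2 the difference was 0.16 (SE 0.09) and did not pass the test, but it was called without the 0% library (adjusted p from edgeR = 0.0140). Clontech differed by -0.06 (SE 0.07).

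Of the calls in single members, 7 of 9 in TotalScript (gd, snk, ea, spz, tub, pll, cact), 4 of 6 in SMART-seq2 (spz, Tl, tub, cact), and 5 of 7 in each of 2.5x and 5x (snk, spz, Tl, tub, cact) held in all 7 alternatives and without each library in turn. The rest were dl and Tl in TotalScript, snk and pll in SMART-seq2, and pll and dl in the dilutions.

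The spread between libraries of a protocol was given as the coefficient of variation (CV) beyond counting error. Its median over the 9 members with a mean of at least 10 reads (10 in TruSeq, with ndl) was 11.1% in Clontech, 14.1% in TotalScript, 10.5% in SMART-seq2, 15.8% in 2.5x and 15.3% in 5x, against 1.47% in TruSeq. The medians over all genes with a mean of at least 10 reads were 14.4, 14.1, 18.9, 15.7, 15.0 and 2.19% in the same order. The members thus varied about as much as other genes in TotalScript and the dilutions.

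**Figure D3:**
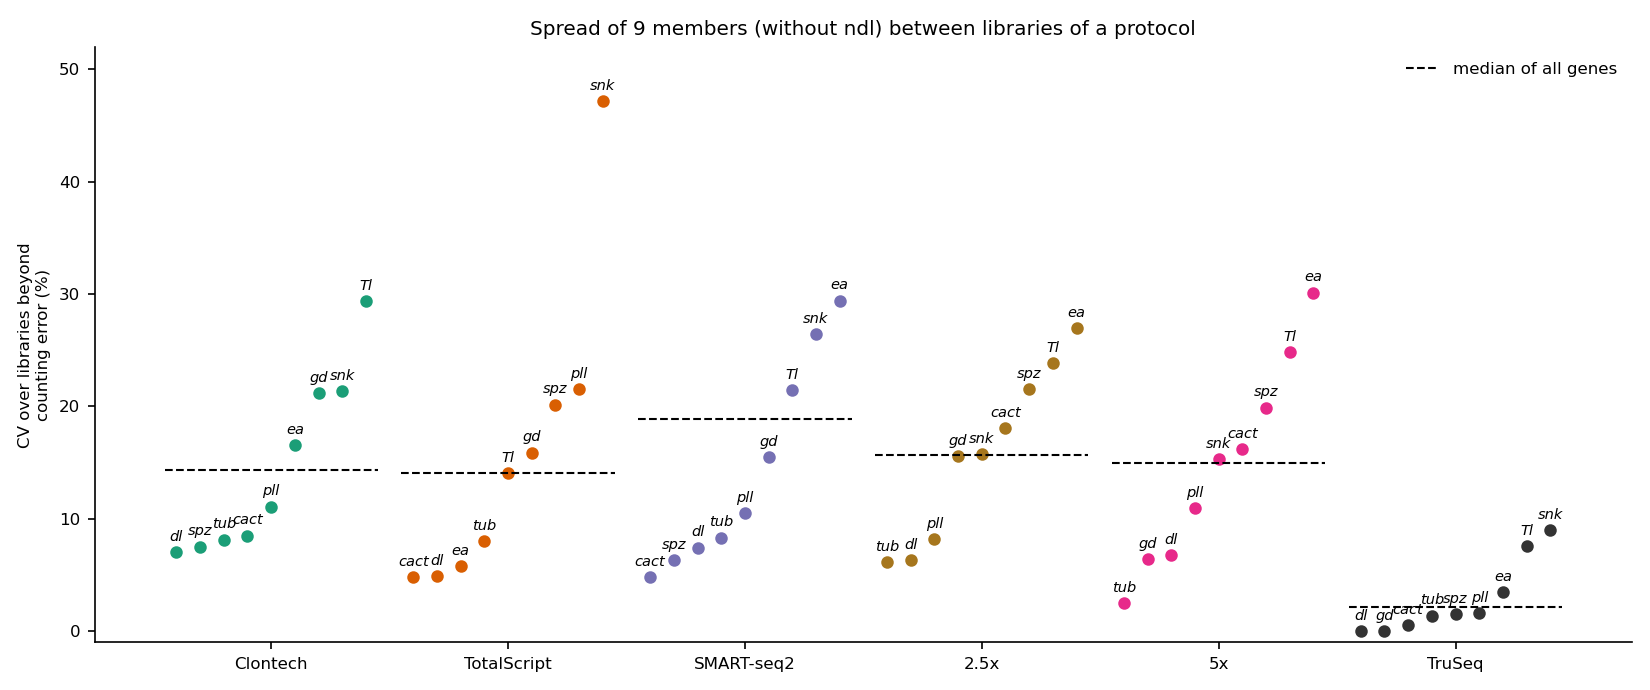
CV over libraries beyond counting error, in percent, for 9 members (points, without ndl) in each low-input protocol and TruSeq, sorted within a protocol, with the median over all genes with a mean of at least 10 reads as a dashed line. The highest member reached 47.2% (snk, TotalScript), and the TruSeq members stayed between 0 and 8.99%. The point for snk in TotalScript rests on a mean of 21.3 reads.

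Among the members the spread was uneven. Tl had 29.4% in Clontech, where 1 library was low, and snk had 47.2% in TotalScript. The protease gene ea was the most variable member in each SMART-seq2 protocol, with 29.4% in SMART-seq2, 27.0% in 2.5x and 30.1% in 5x, against 3.50% in TruSeq. The steadiest were cact in TotalScript and SMART-seq2 (4.82 and 4.80%), tub in 2.5x and 5x (6.17 and 2.51%) and dl in Clontech (7.06%). The summed level of the 10 members was 2186 ± 111 RPM in Clontech, 2151 ± 92.3 RPM in TotalScript, 1649 ± 73.5 RPM in SMART-seq2, 1612 ± 158 RPM in 2.5x and 1621 ± 169 RPM in 5x, against 2249 ± 48.9 RPM in TruSeq (SD, n = 4 or 5). The sum in the SMART-seq2 protocols was lower mainly through Tl, spz and cact.

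The dilutions allow a split of that spread, since each mixture was amplified once and tagmented at both volumes. For 9 members, 0 were called between 5x and 2.5x (background 0% of 6688 genes higher and 0% lower), and ndl was not tested. At an unadjusted p under 0.05 edgeR gave 0 of these members and 0 of all genes, and DESeq2 and limma called 0. These tests left out the pairing by cDNA, so the spread among mixtures counted as error and the absence of calls carries little weight. With the mixture as a replicate block, which here follows the shared cDNA, 125 genes had an unadjusted p under 0.05 and none was called. Of the 9 members, 0 were among those 125 genes. The ratio of 5x to 2.5x in the same mixture was between 0.845 and 1.07 for Tl, 0.958 and 1.07 for ea, and 0.892 and 1.18 for gd, the gene with the fewest reads of the 9.

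**Figure D4:**
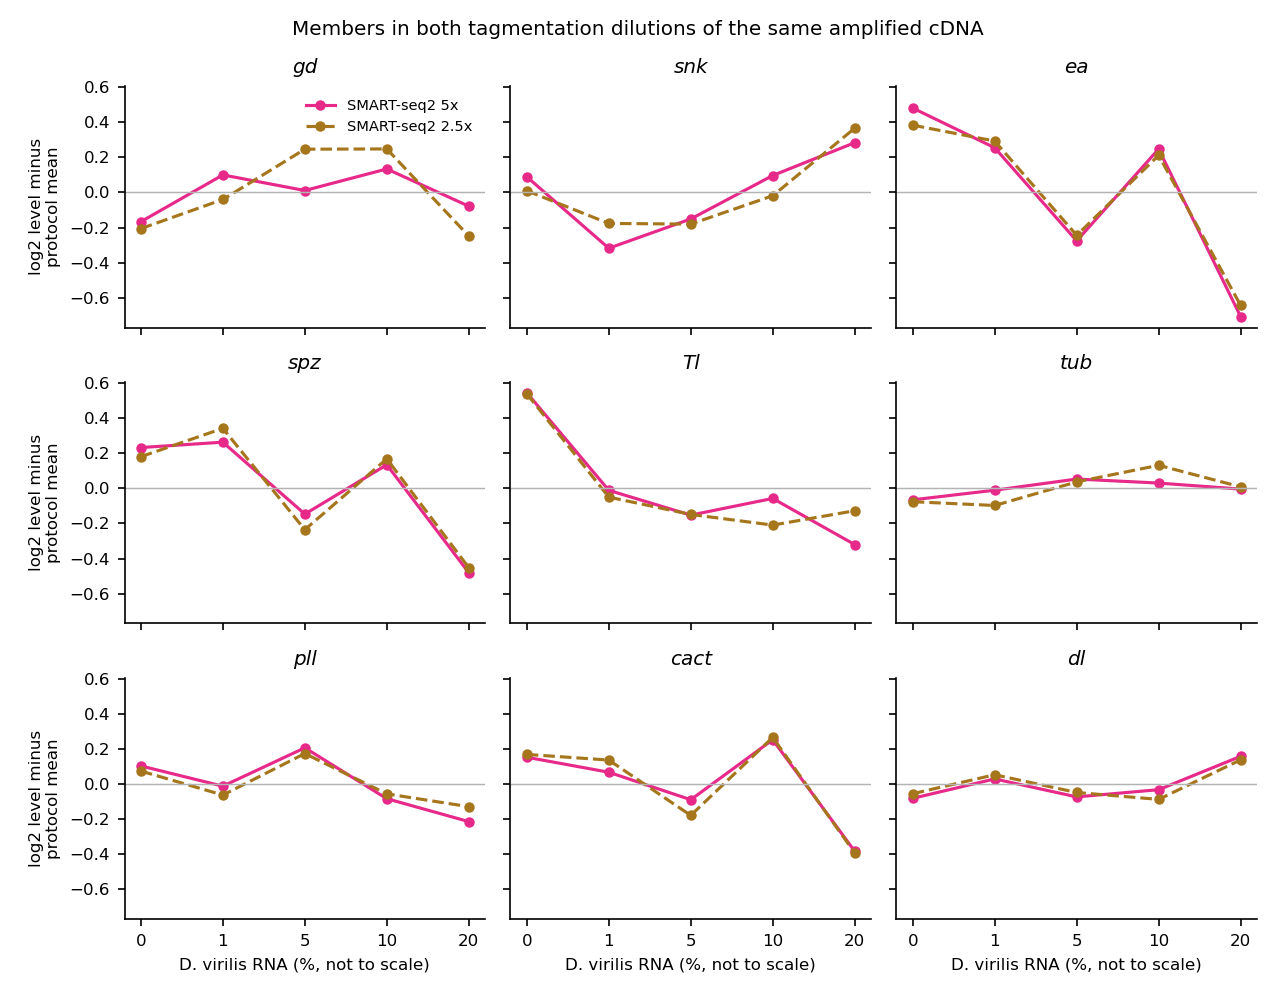
Log2 level of 9 members in the 5 mixtures (horizontal axis, percent D. virilis RNA, not to scale) minus the mean of the dilution, for 5x (solid) and 2.5x (dashed), which share amplified cDNA. The paired lines lie close together for ea and cact, whose levels move by 0.457 and 0.260 (SD, log2) among mixtures and by 0.0415 and 0.0467 within pairs.

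The SD of the log2 level among mixtures was 0.222 and that within pairs 0.0467 as medians over the 9 members, and 0.220 and 0.0738 over all 6617 genes. For ea the among-mixture SD was 11 times the within-pair SD, for spz 6.34 times, for cact 5.57 times, and for tub and gd 1.49 and 1.42 times. So the low ea values of the 5% and 20% mixtures came back in both volumes, while tub differed little between mixtures or volumes. In TruSeq, no member had a called slope over the D. virilis percentage (0 of 10, background 0.0603% of 6639 genes higher and 0.603% lower). At an unadjusted p under 0.05 edgeR gave 2 members, Tl with -0.09 (SE 0.03) per 10 percentage points (adjusted p from edgeR = 0.345) and snk with 0.11 (SE 0.05), while DESeq2 and limma called 0. The slope of Tl was called without the 0% library (-0.15, adjusted p from edgeR = 0.00804) and without the 5% library (-0.06, adjusted p from edgeR = 0.000321).

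Of 15 other genes of the pathway (pip, wbl, Spn27A, Myd88, Gprk2, Pli, cactin, Traf6, Dif, wntD, tamo, smt3, lwr, Ulp1, slmb), 11 or 12 had enough reads for a test. Those called were 0 higher and 0 lower in Clontech (2 at an unadjusted p under 0.05 with edgeR, 0 called by DESeq2 or limma), 3 and 6 in TotalScript, 2 and 4 in SMART-seq2, 4 and 4 in 2.5x, and 4 and 5 in 5x. Calls were frequent among all genes too. Genes called higher made up 38.2% (TotalScript), 35.6% (SMART-seq2), 41.7% (2.5x) and 42.7% (5x) of all those tested. Genes called lower made up 36.5, 18.8, 21.4 and 22.2%, by protocol as before. The list was not tested against these shares, so its counts are not read as a feature of the pathway. With no call in Clontech, no gene of the list could be called in every comparison. Over the other 4 comparisons, Gprk2, cactin and tamo were called lower in each and Pli higher in each. These comparisons share the TruSeq libraries, and 2.5x and 5x also share cDNA. The 4 genes are named after their values were seen, outside the rule that asked for a call in every comparison. The share of all genes called in 1 direction in all 4 comparisons was not counted, so the 4 are not read as a feature of the pathway. The log2 differences in TotalScript, SMART-seq2, 2.5x and 5x were -0.72, -1.14, -1.44 and -1.44 for Gprk2, a kinase gene, and -2.35, -0.66, -0.72 and -0.72 for cactin, named for its binding to Cactus. In the same order they were -0.72, -0.80, -1.10 and -1.08 for tamo, and 0.49, 0.75, 0.94 and 0.90 for Pli, the Pellino gene. The follicle cell genes that act with ndl were at the floor. No library had a read of pip, a sulfotransferase that marks the ventral eggshell, and wbl, which helps to bring it to the Golgi, was read in 1 TruSeq library only, at 0.0751 RPM. Myd88, the adaptor that joins tub and pll at the receptor, averaged 65.5 ± 15.3 RPM in TotalScript, 71.3 ± 6.62 RPM in SMART-seq2, 72.1 ± 9.21 RPM in 2.5x, and 71.5 ± 6.69 RPM in 5x, against 83.9 ± 1.00 RPM in TruSeq. It fell in TotalScript (log2 -0.39, SE 0.14, adjusted p from edgeR = 0.0285) and 5x (log2 -0.23, SE 0.08, adjusted p from edgeR = 0.0297), and its differences of -0.24 in SMART-seq2 and -0.22 in 2.5x did not pass the test.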

How the data were processed

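The deposited counts were made by the authors from single-end reads of 50 bp, with bases called with CASAVA 1.8 per the submitters' notes and mapped with STAR to FlyBase 5.54 references of D. melanogaster and D. virilis joined into 1. Reads were counted by gene name with htseq-count, without strand. The column headers say FPKM, but the values are whole numbers with the 5 htseq-count categories below them. The values were therefore used as raw counts. These categories were left out of library sizes and held 17.3 to 52.7% of the alignments listed for each library. A table of randomly sampled counts was an alternative.

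Counts were divided by the D. melanogaster total. Genes with at least 10 reads in at least 4 libraries of a fit were tested between 2 protocols with edgeR 4.0.16 (R 4.3.3; robust dispersion, no further scaling), at an adjusted p of 0.05. The CV beyond counting error is the square root of CV squared minus the mean over libraries of 1 over the expected reads. It was set to 0 where the difference was negative. The SE of an edgeR log2 fold change was derived as its absolute value over the square root of the F statistic of the test. The pair SD used a pseudocount of 0.5. Alternatives were TMM, DESeq2 1.42.0, limma 3.58.1 voom, a minimum of 1 read, sampled counts, all 26 libraries, the mixture as a block, and each library left out. Same-mixture libraries of 5x and 2.5x came from the same cDNA (r of their deviations 0.867 to 0.940). The main test between them did not use this pairing, and only the block alternative did. Between other protocols r was -0.0799 to 0.163, so mixtures were not paired there. On simulated counts for SMART-seq2 vs TruSeq (6648 genes), 88.0% of genes changed 2-fold, 52.5% of those changed 1.5-fold and 0.0775% of unchanged genes were called. Only 100 and 99 of the tested genes were changed, in either direction at random, and all genes of a protocol had the same dispersion. In the data 3610 of 6644 genes were called, so these rates are not those of the actual tests. All 10 members and the fixed list of other pathway genes are named by rule, and they were chosen with earlier results of these data known. The values of Gprk2, cactin, tamo and Pli are given outside that rule. Overlapping gene spans were looked up by symbol in a RefSeq table of genome release 6 (10 of 10 matched, 5 with an overlap, 5 without), and no coordinates or sequences were taken from it. Python 3.11.15 with pandas 2.3.3, numpy 2.4.6, scipy 1.17.1 and matplotlib 3.10.9 was used. Limits of a count of 0 cover counting error only.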

Additional observations from a re-analysis of the deposited data

Results flagged for a closer look

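Of 59 checks of a member in the libraries of 1 protocol, 6 found a library whose gap to its nearest neighbour took up most of the range. Chance gives about 1 in 20 only for normally distributed values, so the number of flags is not set against that rate. Of the 6 flags, 4 concern ndl at very few reads, where that rate does not hold. They were the TotalScript 0% library (0.495 RPM, 1 read, against 0 in the other 3), the 1% libraries of the 5x dilution (1.47 RPM, 28 reads) and the 2.5x dilution (0.707 RPM, 12 reads), which share their cDNA, and the 10% library of TruSeq, which was low (0.351 RPM, 11 reads). The other flags were tub in the 0% library of SMART-seq2, which was high (260.8 RPM, 480 reads), and Tl in the 0% library of the 2.5x dilution, which was high (423.6 RPM, 5281 reads). The 0% library of the 5x dilution, from the same cDNA, was also its highest for Tl (411 RPM).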

How the results depend on the processing

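Of the members' log2 fold changes under the alternatives, 928 stayed on their side of the threshold, among them 69 uncalled values that changed sign, 61 lost the call, 12 gained it and 4 called values reversed. The called values that reversed were dl in the dilutions, with -0.00490 in 5x and -0.00633 in 2.5x under TMM, and -0.0175 in 5x and -0.0188 in 2.5x under DESeq2. In fits with the mixture as a replicate block, dl was not called in TotalScript (adjusted p 0.0523), 2.5x (0.139) or 5x (0.104), pll in SMART-seq2 (0.0906), 2.5x (0.0571) or 5x (0.0904), and snk in SMART-seq2 (0.102). In those fits ndl, admitted only through its TruSeq reads, was called lower in 2.5x (0.0275) and 5x (0.0240). Between 5x and 2.5x the block changed no call. The count of all genes called in Clontech, 11, became 399 with DESeq2, 24 with a minimum of 1 read, 54 with the block, 4 with all 26 libraries, 19 with limma, and 1 to 718 with 1 library left out, the highest without its 10% library; the cause was not tested. The count for the D. virilis slope, 44, became 23 with TMM, 109 with a minimum of 1 read, 9 with sampled counts, 2 with all 26 libraries and 9 to 404 with 1 library left out, and its called members 1 with a minimum of 1 read and 0 to 1 with 1 library left out, each time Tl. TMM moved the members' summed level to 2298 RPM in Clontech, against 2487 RPM in TruSeq. The median member CV in TruSeq was 4.01% with sampled counts, 0.399% with TMM and 0.288 to 1.88% with 1 library left out; that in TotalScript was 10.2 to 15.1% and in 5x 9.82 to 16.0% with 1 library left out. Depth limits ndl in single TotalScript and SMART-seq2 libraries, and gd and snk in TotalScript, where a library held 9 to 32 of their reads.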
